A study of Mus musculus with 6 samples.

Results

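Integrins, laminins and the other genes of the corneal basement membrane were examined in RNA sequencing libraries of whole corneas from mice with experimental dry eye. Members were chosen by gene symbol: integrin alpha and beta genes, laminin chains, type IV collagen chains and 15 named genes of basement membranes, hemidesmosomes and their regulators. The rule found 61 of the 17794 genes in the deposited table, and 60 of them passed the filter on low counts. Only Itgad, an integrin alpha gene of macrophages, did not pass, with 1 read in 1 vehicle library. Itgb3bp, which encodes a centromere protein that can bind an integrin tail, met the pattern by its name. The luteolin group holds 3 libraries from corneas collected after 10 days of luteolin, a plant flavone, and the vehicle group holds 3 libraries after 10 days of vehicle. All animals had first received benzalkonium chloride, a quaternary ammonium preservative of eye drops that injures the epithelium, so both groups are injured tissue. The sources used here give no strain, age, sex, dose or route. Separate animals are not stated for the libraries, and the p-values then reflect only the spread among these samples, which may be technical.

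A basement membrane is a thin sheet of extracellular matrix under an epithelium, around vessels and around muscle fibres. It is built from laminin trimers of 1 alpha, 1 beta and 1 gamma chain and from a collagen IV network, which nidogens and the proteoglycans perlecan and agrin join together. Integrins are cell surface receptors of 1 alpha and 1 beta subunit that hold cells to this sheet or, on leukocytes, to other cells. In the cornea the basal epithelial cells are fixed by hemidesmosomes, in which the integrin of Itga6 and Itgb4 and the collagen of Col17a1 bind a laminin that holds the Lama3 and Lamb3 chains, and anchoring fibrils of Col7a1 tie that sheet to the stroma. Descemet's membrane, made by the corneal endothelium, is a second basement membrane of the cornea.

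Luteolin corneas had lower transcript levels of the collagen IV chains Col4a1 and Col4a2, of the linker genes Col18a1, Hspg2 and Nid2, of the laminin chains Lamb3 and Lama4 and of the integrins Itga6, Itgb4, Itga3 and Itgb1. They had higher levels of Lamb1, Lama5 and the Fraser complex genes Fras1 and Frem2. Of the 60 tested members, 30 fell, 12 rose and 18 did not pass edgeR's quasi-likelihood test (Benjamini-Hochberg adjusted p under 0.05 over all 13838 tested genes). That is 70% called, where 58.9% of all tested genes were called, with 28.5% higher and 30.4% lower. Scaled counts of the luteolin and vehicle libraries were fully separated for 41 of the 60 members (68.3%), 11 of them higher and 30 lower, against 67.4% of all tested genes (33.8% higher and 33.7% lower). Changes of over 1 on the log2 scale were called for 26 members, or 43.3%, against 19.7% of all tested genes. The median log2 fold change was -0.52 over the members and -0.02 over all tested genes.

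**Figure D1:**
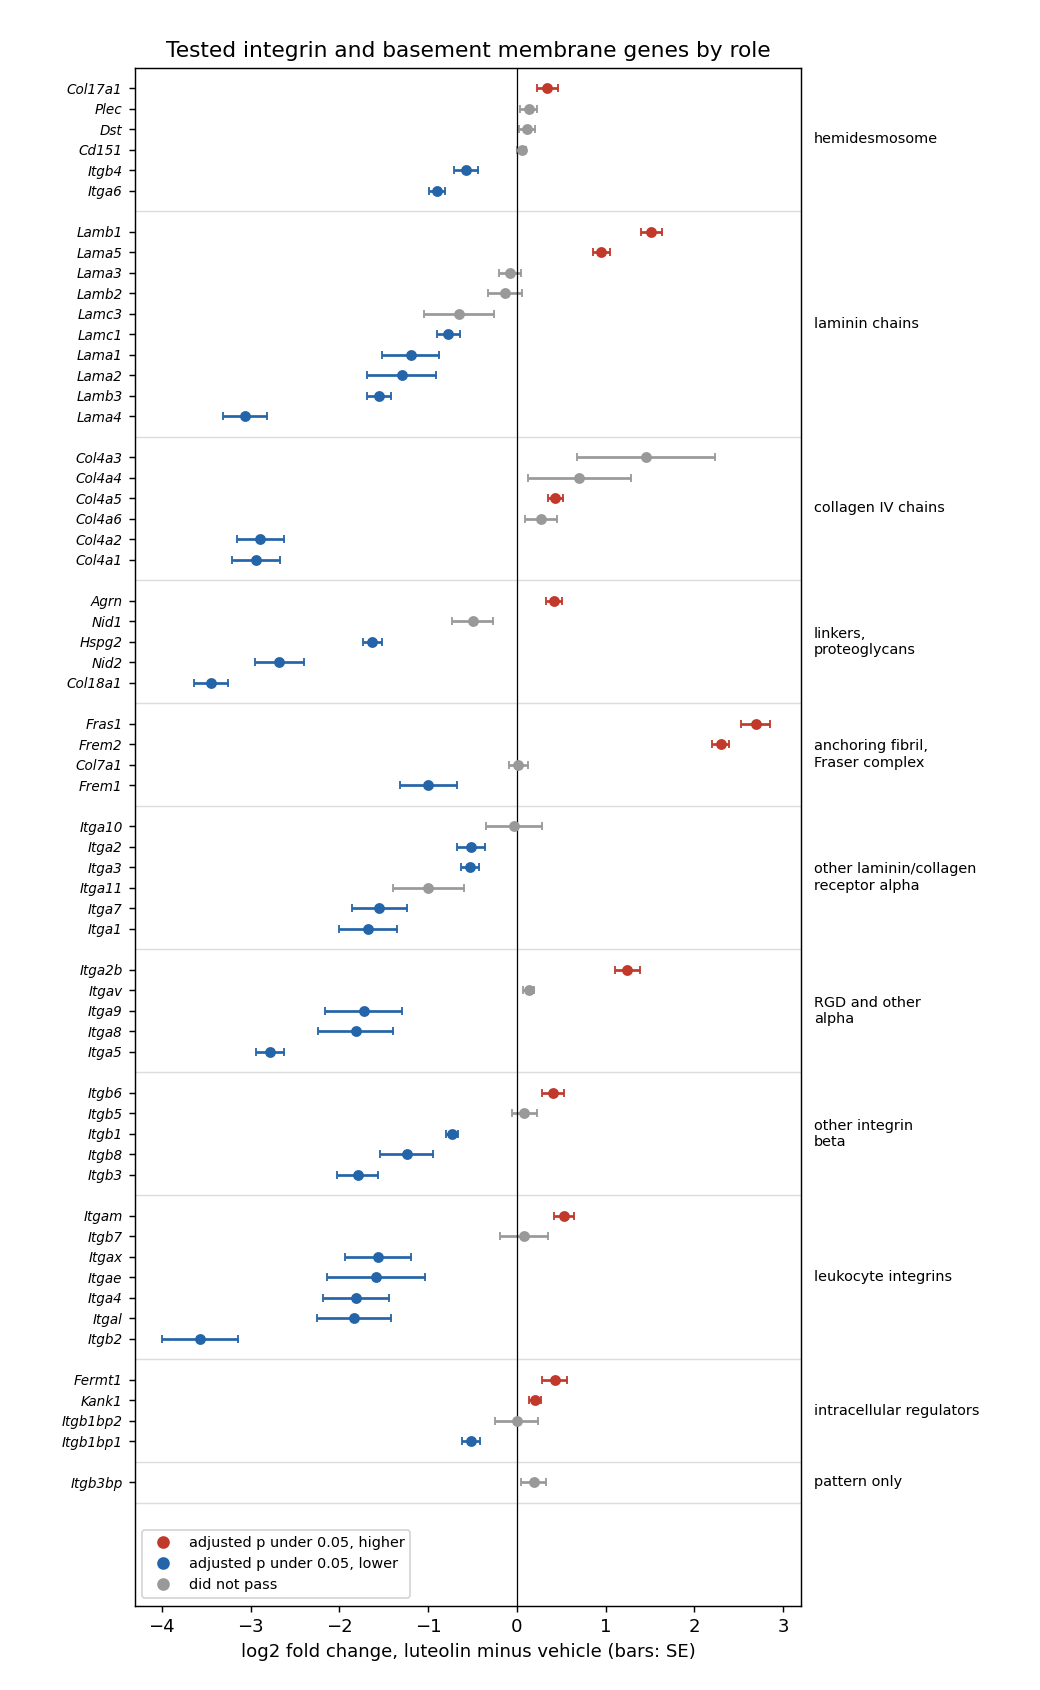
Log2 fold change of luteolin over vehicle for tested genes, in rows grouped by role, with bars for the SE. Points right of 0 are higher with luteolin, with Fras1 at 2.69 the highest and Itgb2 at -3.57 the lowest, and colours mark genes that rose, fell or did not pass.

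The calls differed with level, among the members and among all tested genes. Of the 30 members with a mean of at least 10 TPM (a level scaled to the library total and corrected for gene length) over the 6 libraries, 9 rose, 10 fell and 11 had no call, and the median log2 fold change was 0.07. All tested genes of that level were 35.1% higher and 26.3% lower, with a median of 0.05. Of the 30 members under 10 TPM, 3 rose, 20 fell and 7 had no call, and the median was -1.42. Of these members 66.7% fell and 10.0% rose, against 36.4% and 19.0% of all tested genes under 10 TPM, whose median was -0.22.

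Library totals were 16084855 to 16469699 estimated counts. Across genes (not independent points) the log2 CPM of 2 libraries of a group had a Pearson r between 0.970 and 0.991, and libraries of different groups between 0.901 and 0.919. Chi-square over its degrees of freedom ran between 6.30 and 30.3 for pairs of a group, so no library was a copy of another. The label of cornea fits the marker Krt12, the keratin of corneal epithelium, at 26388, 25432 and 25676 TPM with luteolin and 12115, 15971 and 14476 TPM with vehicle. Skeletal muscle RNA varied widely within both groups. The summed level of 11 muscle markers was 6.13, 5.66 and 97.2 TPM in luteolin 1, 2 and 3. In vehicle 1, 2 and 3 it was 131, 238 and 3.87 TPM. The 9 tested markers had log2 fold changes of -2.77 to -1.19 (median -1.67), and 0 of them passed. With this spread, 3 against 3 libraries cannot show whether muscle RNA differed between the groups. Fewer cells of a type and less RNA per cell cannot be told apart in these bulk libraries.

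In the hemidesmosome group of 6 genes the 2 integrin subunits fell, Col17a1 rose slightly and 3 genes did not pass. These calls make 50% of the group, where 58.9% of all tested genes were called. Itga6, the alpha 6 subunit of the hemidesmosome integrin, had 148, 139 and 136 TPM in the luteolin libraries, against 261, 237 and 289.8 TPM in the vehicle libraries. All luteolin libraries were below all vehicle libraries (log2 fold change -0.90, SE 0.0904, edgeR adjusted p = 0.000231). Its partner Itgb4, the beta 4 subunit with a long cytoplasmic tail that reaches the keratin linkers, had 100.02, 97.2 and 113 TPM with luteolin, against 157, 131 and 185 TPM with vehicle. The groups again did not overlap, and the log2 fold change was -0.57 with an SE of 0.132 (edgeR adjusted p = 0.00797).

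Col17a1, the transmembrane collagen of the hemidesmosome, had the highest level of all members, at 853, 748 and 867 TPM with luteolin and 588, 606 and 741 TPM with vehicle. Luteolin 2 and vehicle 3 were close together and crossed on the scale of scaled counts, and the log2 fold change was 0.34 with an SE of 0.114 (edgeR adjusted p = 0.0335). This call ended without luteolin 1, luteolin 3, vehicle 1 or vehicle 2 (edgeR adjusted p between 0.0661 and 0.105 in these fits, over all alternatives 0.00488 to 0.105). The call also ended with upper quartile factors, library sizes only, the muscle covariate and limma-trend on FPKM, but held with relative log expression factors. The cytolinkers Plec and Dst, which join the plaque to keratin filaments, and the tetraspanin Cd151, which associates with laminin-binding integrins, had log2 fold changes of 0.13 (SE 0.0944), 0.11 (SE 0.0878) and 0.05 (SE 0.0521) and did not pass. Counts of Dst had decimals in all 6 libraries, as when reads are divided between similar transcripts, so its values are less certain. The log2 ratio of Itga6 to Itgb4 within a library was 0.45 ± 0.16 with luteolin and 0.74 ± 0.10 with vehicle (SD, n = 3 each) with no overlap (two-sided exact permutation p = 0.10, the smallest that 3 against 3 allows). The corneal epithelium markers in the same libraries were mostly higher (6 of 8 rose, 1 fell), with a summed level of 45005 to 45592 TPM with luteolin and 33719 to 35767 TPM with vehicle. The marker that fell was Krt14, a keratin of basal epithelial cells, with 361, 491 and 517 TPM with luteolin and 7244, 3529 and 6269.96 TPM with vehicle (log2 fold change -3.64), and the sum is carried by Krt12 and Krt5. All 3 conjunctiva markers in the table fell, with sums of 1845 to 2776 TPM with luteolin and 4197 to 4438 TPM with vehicle. The part of these markers in the results was not tested.

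**Figure D2:**
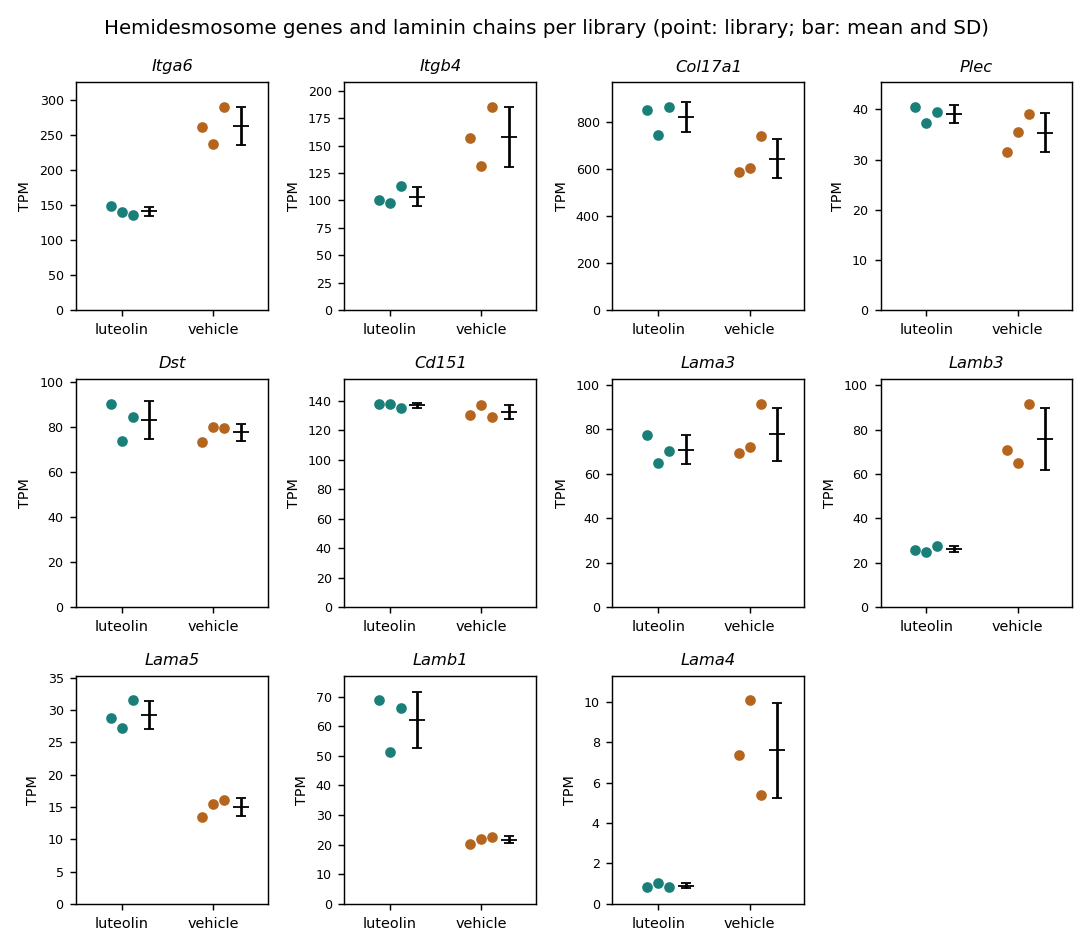
TPM of 11 hemidesmosome genes and laminin chains in each library, luteolin on the left and vehicle on the right of each panel, with the group mean and SD beside the points. Itga6, Itgb4, Lamb3 and Lama4 lie lower in every luteolin library, Lama5 and Lamb1 higher, and the groups of Plec, Dst, Cd151 and Lama3 overlap.

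Lama3 and Lamb3, the alpha and beta chains of the epithelial laminin, did not move together. Lamb3 had 25.7, 24.8 and 27.6 TPM with luteolin, against 70.9, 64.8 and 91.7 TPM with vehicle (log2 fold change -1.55, SE 0.139, edgeR adjusted p = 0.000156). All luteolin libraries were well below all vehicle libraries. Lama3 had 77.6, 64.8 and 70.3 TPM with luteolin and 69.4, 72.2 and 91.6 TPM with vehicle, with overlapping groups and a log2 fold change of -0.07 (SE 0.124) that did not pass. The log2 ratio of Lama3 to Lamb3 was 1.44 ± 0.13 with luteolin and 0.04 ± 0.10 with vehicle (SD, n = 3 each), 2.64 times higher with luteolin and without overlap (exact permutation p = 0.10, adjusted p = 0.133 over 12 ratios).

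Lamb1, the beta chain shared by many laminins, went the other way from Lamb3. It had 68.8, 51.3 and 66.2 TPM with luteolin, against 20.3, 21.9 and 22.7 TPM with vehicle (log2 fold change 1.52, SE 0.116, edgeR adjusted p = 0.000101). Lama5, an alpha chain widespread in epithelial basement membranes, had 28.8, 27.3 and 31.5 TPM with luteolin, against 13.4, 15.4 and 16.1 TPM with vehicle, and was 1.94-fold higher. Lamb1 and Lama5 were the laminin chains that rose, of 11 tested, while 6 fell and 3 did not pass. So 72.7% of the laminin chains were called, against 58.9% of all tested genes. Lama4, the alpha chain of vessel basement membranes, had 0.85, 1.04 and 0.83 TPM with luteolin, against 7.37, 10.1 and 5.38 TPM with vehicle (log2 fold change -3.07, SE 0.246, edgeR adjusted p = 0.000115), the largest decrease of a laminin chain. Lamc1, the common gamma chain, was 1.71-fold lower, and the low-level Lama1 and the muscle and nerve chain Lama2 were 2.29-fold and 2.46-fold lower. Lama2 had 3.14, 2.24 and 1.30 TPM with luteolin and 4.65, 8.27 and 3.44 TPM with vehicle, and its call ended without luteolin 2 or luteolin 3 and with the muscle markers as a covariate (edgeR adjusted p = 0.0801, over the alternatives 0.00734 to 0.0801). Lamb2 (-0.14, SE 0.193) and Lamc3 (-0.65, SE 0.397) did not pass.

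The summed level of the beta chains was 103 ± 10.6 TPM with luteolin and 113 ± 11.7 TPM with vehicle (SD, n = 3 each), while its make-up differed. Lamb1 made up 62.5%, 56.7% and 61.6% of beta chain TPM in the luteolin libraries, against 19.3%, 20.2% and 17.9% in the vehicle libraries. Lamb3 made up 25.5% ± 2.06 with luteolin and 66.5% ± 6.30 with vehicle (SD, n = 3 each). The alpha chains summed to 103 ± 7.55 TPM with luteolin and 106 ± 10.8 TPM with vehicle, and Lama5 took 28.3% ± 2.13 of them with luteolin and 14.1% ± 0.362 with vehicle (SD, n = 3 each). The shares are descriptions without a test and were chosen after their values were seen.

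**Figure D3:**
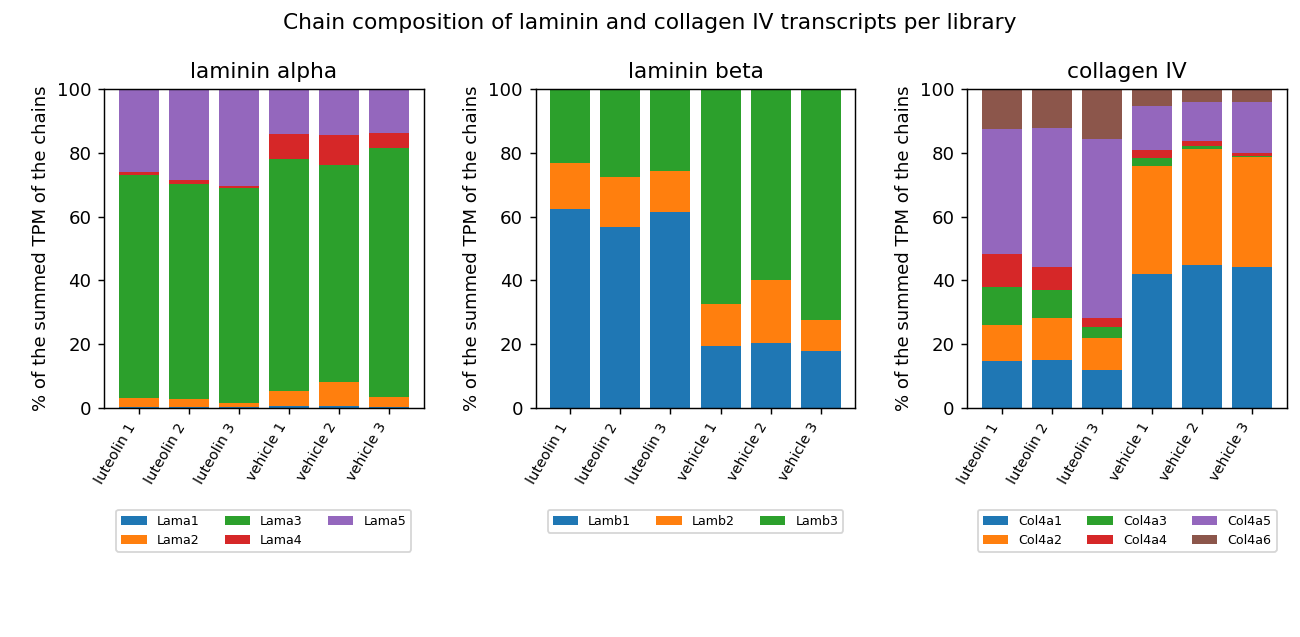
Stacked bars give each chain's percent of the summed TPM of its class in each library, luteolin libraries left and vehicle libraries right. Lamb1 is the main beta chain in the luteolin libraries and Lamb3 in the vehicle libraries. Of collagen IV, Col4a5 has the highest share in the luteolin libraries and Col4a1 in the vehicle libraries.

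Of the 6 collagen IV genes 2 fell, 1 rose and 3 did not pass (50% called, against 58.9% of all tested genes). Col4a1 and Col4a2, which encode the chains of the common network of nearly all basement membranes, fell together. Col4a1 had 5.48, 5.11 and 2.83 TPM with luteolin, against 31.4, 44.0 and 27.0 TPM with vehicle (log2 fold change -2.94, SE 0.272, edgeR adjusted p = 0.000173). Col4a2 had 4.20, 4.40 and 2.47 TPM with luteolin, against 25.4, 35.5 and 20.9 TPM with vehicle (log2 fold change -2.89, SE 0.261, edgeR adjusted p = 0.000160). Vehicle 2 was highest and luteolin 3 lowest for both genes. These genes lie head to head, and their promoter windows (250 bases before to 50 after the start, from RefSeq, build GRCm38.p6) overlap by 78 bases, shown in capitals because both genes start inside this shared stretch.
Col4a1, minus strand, chr8:11312777-11313076: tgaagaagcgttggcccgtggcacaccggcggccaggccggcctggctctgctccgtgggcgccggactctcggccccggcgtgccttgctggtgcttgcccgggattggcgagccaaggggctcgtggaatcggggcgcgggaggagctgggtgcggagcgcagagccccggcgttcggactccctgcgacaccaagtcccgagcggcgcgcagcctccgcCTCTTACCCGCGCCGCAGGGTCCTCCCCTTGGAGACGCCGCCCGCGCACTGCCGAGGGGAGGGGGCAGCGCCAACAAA
Col4a2, plus strand, chr8:11312555-11312854: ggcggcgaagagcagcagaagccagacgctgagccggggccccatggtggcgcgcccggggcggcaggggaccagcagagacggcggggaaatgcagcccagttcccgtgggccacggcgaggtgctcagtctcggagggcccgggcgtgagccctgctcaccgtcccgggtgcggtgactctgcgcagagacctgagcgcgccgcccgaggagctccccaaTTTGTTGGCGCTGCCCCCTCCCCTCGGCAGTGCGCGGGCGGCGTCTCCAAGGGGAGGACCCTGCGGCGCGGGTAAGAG

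Col4a5, an X-linked chain found in epithelial and Descemet's basement membranes, rose: it had 14.5, 14.8 and 13.5 TPM with luteolin, against 10.3, 11.8 and 9.63 TPM with vehicle (log2 fold change 0.43, SE 0.0849, edgeR adjusted p = 0.00387). Its neighbour Col4a6 (0.27, SE 0.179) did not pass. The log2 ratio of Col4a1 to Col4a5 was -1.70 ± 0.45 with luteolin and 1.66 ± 0.21 with vehicle (SD, n = 3 each), 10.3 times lower with luteolin (exact permutation p = 0.10, adjusted p = 0.133). Col4a5 took 46.2% ± 8.77 of collagen IV TPM with luteolin and 13.9% ± 1.88 with vehicle (SD, n = 3 each). The sum behind these shares was itself lower, at 31.7 ± 6.75 TPM with luteolin and 77.85 ± 18.7 TPM with vehicle. Col4a3, which forms a network with Col4a4 and Col4a5, had 4.42, 3.03 and 0.78 TPM with luteolin and 1.78, 1.03 and 0.19 TPM with vehicle. Col4a4 had 3.82, 2.45 and 0.75 TPM with luteolin and 2.0, 1.61 and 0.65 TPM with vehicle. The groups overlapped for both, and luteolin 3 and vehicle 3 were the lowest of their groups. Their log2 fold changes of 1.45 (SE 0.777) and 0.70 (SE 0.582) did not pass. The summed level of 4 corneal endothelium markers, whose cells make Descemet's membrane, was 101, 75.8 and 38.1 TPM in luteolin 1, 2 and 3 and 89.5, 96.7 and 51.6 TPM in vehicle 1, 2 and 3. Of the 4 markers, Tfap2b fell (log2 fold change -0.83, SE 0.253, edgeR adjusted p = 0.0248) and 3 did not pass. None of the 4 was at 0, and their part was not tested.

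Among the 5 linkers and proteoglycans 3 fell, 1 rose and 1 did not pass (80% called, against 58.9% of all tested genes). Col18a1, the collagen from which endostatin is cut, had 1.17, 1.52 and 2.1 TPM with luteolin, against 19.5, 16.1 and 17.9 TPM with vehicle (log2 fold change -3.45, SE 0.193, edgeR adjusted p = 4.5e-05). Every luteolin library was far below every vehicle library. Hspg2, perlecan, had 3.38, 4.06 and 3.46 TPM with luteolin, against 10.6, 12.7 and 10.2 TPM with vehicle (log2 fold change -1.63, SE 0.110, edgeR adjusted p = 7.1e-05). The nidogen gene Nid2 had 0.56, 0.52 and 0.33 TPM with luteolin, against 3.17, 3.66 and 2.21 TPM with vehicle (log2 fold change -2.68, SE 0.276, edgeR adjusted p = 0.000256), with decimal counts in all 6 libraries. The other nidogen gene, Nid1, had 17.7, 18.4 and 13.9 TPM with luteolin and 20.8, 32.6 and 17.0 TPM with vehicle. Its groups overlapped and its log2 fold change of -0.50 (SE 0.230) did not pass. Nid1 did pass without vehicle 3 (-0.69, edgeR adjusted p = 0.0249) and with the replicate block (0.0232). It also passed in DESeq2 (adjusted p = 0.0451), and over the alternatives its adjusted p ran from 0.0232 to 0.263. Agrn, agrin, a proteoglycan also known from nerve-muscle junctions, had 61.5, 62.2 and 67.6 TPM with luteolin, against 44.8, 45.9 and 52.7 TPM with vehicle, and rose by 0.42 on the log2 scale (SE 0.0919, edgeR adjusted p = 0.00637).

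Markers of blood vessels were lower in the same libraries in which Col4a1, Col4a2, Lama4, Hspg2 and Col18a1 were lower. All 9 vessel endothelium markers fell, with a summed level of 14.9 to 22.6 TPM with luteolin and 95.0 to 159 TPM with vehicle and none at 0. All 4 tested markers of pericytes and smooth muscle fell as well, with sums of 15.9 to 23.4 TPM with luteolin and 82.0 to 142 TPM with vehicle. The decrease was not particular to vessel markers. All 4 mast cell markers fell, and of 4 Schwann cell markers 3 fell and 1 did not pass. Of 8 keratocyte markers 3 fell and 5 did not pass, where 30.4% of all tested genes fell. Keratocyte sums overlapped, at 1169 to 2541 TPM with luteolin and 1745 to 5623 TPM with vehicle. Log2 fold changes of these 8 ran from -2.13 to 1.26 (median -1.08), and the highest, of Kera, did not pass. The part of any of these markers in the decrease of the basement membrane genes was not tested.

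The genes with the largest increases belonged to the Fraser complex, which links epithelial basement membranes to the underlying matrix in the embryo and whose loss gives skin blisters and fused eyelids in mice. Fras1 had 8.99, 7.55 and 7.12 TPM with luteolin, against 1.08, 1.52 and 1.05 TPM with vehicle (log2 fold change 2.69, SE 0.159, edgeR adjusted p = 4.8e-05). Frem2 had 19.8, 18.0 and 18.2 TPM with luteolin, against 3.37, 4.22 and 3.70 TPM with vehicle (log2 fold change 2.296, SE 0.0943, edgeR adjusted p = 2.8e-05). Neither gene's groups came near each other. Frem2 counts had decimals in 5 libraries. Their partner Frem1, known to be secreted by mesenchymal cells in skin, had 1.32, 0.70 and 0.98 TPM with luteolin, against 2.52, 2.38 and 1.43 TPM with vehicle, and fell by 0.998 on the log2 scale (edgeR adjusted p = 0.0300). The call of Frem1 was lost without luteolin 2, luteolin 3, vehicle 1 or vehicle 2 (edgeR adjusted p between 0.0621 and 0.0970 in these fits, over all alternatives 0.0121 to 0.0970), which left 0 of the 4 genes of this group lower. Col7a1, the anchoring fibril collagen, had 14.9, 14.2 and 16.0 TPM with luteolin and 13.6, 13.7 and 17.0 TPM with vehicle, and its log2 fold change of 0.02 (SE 0.108) did not pass.

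Of the other alpha subunits that bind laminin or collagen, 4 of 6 fell, 0 rose and 2 did not pass. Their 66.7% called stands beside 58.9% of all tested genes. Itga3, a laminin receptor subunit of basal epithelial cells, had 74.3, 69.5 and 73.7 TPM with luteolin, against 96.1, 99.04 and 119.6 TPM with vehicle (log2 fold change -0.53, SE 0.0997, edgeR adjusted p = 0.00327). Itga3 fell less than Itga6: the log2 ratio of Itga3 to Itga6 was -0.96 ± 0.07 with luteolin and -1.32 ± 0.10 with vehicle (SD, n = 3 each), without overlap (exact permutation p = 0.10, adjusted p = 0.133). Itga2, a collagen receptor subunit, was 1.43-fold lower, a call lost without luteolin 2 or luteolin 3 (edgeR adjusted p = 0.0716 and 0.0675, over the alternatives 0.00547 to 0.0716). Itga1, a collagen receptor subunit of vessels and stroma, had 0.52, 0.50 and 0.36 TPM with luteolin, against 1.49, 2.03 and 0.90 TPM with vehicle, and was 3.19-fold lower. Itga7, the laminin receptor subunit of muscle, had 0.95, 0.93 and 0.78 TPM with luteolin, against 3.2, 3.07 and 1.48 TPM with vehicle, and was 2.92-fold lower. Itga7 was lowest within the vehicle group in vehicle 3, the vehicle library with the least muscle RNA. Within the luteolin group it was lowest in luteolin 3, the luteolin library with the most muscle RNA. With the muscle markers as a covariate Itga7 kept its call (log2 fold change -1.28). The part of muscle RNA in its decrease was not tested. Itga10 (-0.03, SE 0.313) and Itga11 (-0.995, SE 0.405) did not pass. Itga11 did pass without vehicle 3 (-1.28, edgeR adjusted p = 0.0226), with library sizes only (0.0479) and with the replicate block (0.00700). It also passed in DESeq2 (adjusted p = 0.0224), and over the alternatives its adjusted p ran from 0.00700 to 0.217.

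Of the 5 alpha subunits for fibronectin, related ligands with the RGD motif and other ligands, 3 fell, 1 rose and 1 did not pass. Of all tested genes 30.4% fell and 28.5% rose. The 3 that fell had means under 10 TPM over the 6 libraries, and Itgav, with the highest level of the 5, did not pass. Itga5, the fibronectin receptor subunit, had 1.47, 1.53 and 1.19 TPM with luteolin, against 8.78, 11.2 and 8.72 TPM with vehicle (log2 fold change -2.78, SE 0.154, edgeR adjusted p = 4.4e-05). Itga8, an RGD receptor subunit of smooth muscle and mesenchyme, was 3.52-fold lower at 0.29, 0.41 and 0.26 TPM with luteolin, against 1.04, 1.54 and 0.61 TPM with vehicle. Itga9, a tenascin receptor subunit, had a log2 fold change of -1.72, and of -1.10 without vehicle 2, the highest vehicle library. Itgav, the alpha partner of several beta subunits, had 31.9, 31.6 and 28.6 TPM with luteolin and 27.0, 28.5 and 27.9 TPM with vehicle, and did not pass (log2 fold change 0.13, SE 0.0624). Itga2b, the platelet fibrinogen receptor subunit, rose: it had 3.91, 3.85 and 3.89 TPM with luteolin, against 1.64, 1.54 and 1.72 TPM with vehicle (log2 fold change 1.25, SE 0.144, edgeR adjusted p = 0.000405). Its platelet partner Itgb3 went the other way, with 0.42, 0.47 and 0.41 TPM with luteolin, against 1.41, 1.88 and 1.22 TPM with vehicle (log2 fold change -1.79, SE 0.230, edgeR adjusted p = 0.000612). Of the 5 platelet markers, 3 were tested: Pf4 fell, Gp1bb rose and Gp1ba did not pass. Gp9 was at 0 in every library but vehicle 3 (0.15 TPM), and Gp6 was absent from the deposited table. The summed level of the platelet markers was 15.5 to 17.2 TPM with luteolin and 89.0 to 103 TPM with vehicle. Their part was not tested. Pf4 carries most of the vehicle sum, at 3.13, 3.78 and 1.97 TPM with luteolin and 97.5, 80.9 and 92.3 TPM with vehicle, while Gp1bb had 11.98, 13.2 and 13.2 TPM with luteolin and 4.77, 7.81 and 6.91 TPM with vehicle.

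Of the 5 other beta subunits 3 fell, 1 rose and 1 did not pass (80% called, against 58.9% of all tested genes). Itgb1, the common partner of the laminin, collagen and fibronectin receptors, had 111, 98.98 and 96.3 TPM with luteolin, against 172, 171 and 164 TPM with vehicle (log2 fold change -0.73, SE 0.0658, edgeR adjusted p = 0.000157). Itgb8, which pairs with Itgav and activates latent TGF-beta, had 0.22, 0.32 and 0.29 TPM with luteolin, against 0.72, 0.82 and 0.44 TPM with vehicle, and was 2.37-fold lower. Itgb6, the epithelial partner of Itgav that also activates latent TGF-beta, had 9.57, 8.33 and 9.34 TPM with luteolin, against 6.73, 5.84 and 7.86 TPM with vehicle, and rose by 0.41 on the log2 scale (edgeR adjusted p = 0.0262). Its call ended without luteolin 1, luteolin 3 or vehicle 1 (edgeR adjusted p between 0.0796 and 0.0890 in these fits, over all alternatives 0.009995 to 0.0949). The call also ended with upper quartile factors, library sizes only, the muscle covariate and limma-trend on FPKM, but held with relative log expression factors. Each loss left 0 of the 5 higher. Itgb5 (0.09, SE 0.137) did not pass, but rose without vehicle 2 (0.27, edgeR adjusted p = 0.00800, over the alternatives up to 0.967). The alpha integrin genes summed to 331.97 ± 4.85 TPM with luteolin and 480.3 ± 38.3 TPM with vehicle, and the 8 beta integrin genes to 299 ± 5.09 TPM with luteolin and 426 ± 12.6 TPM with vehicle (SD, n = 3 each).

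**Figure D4:**
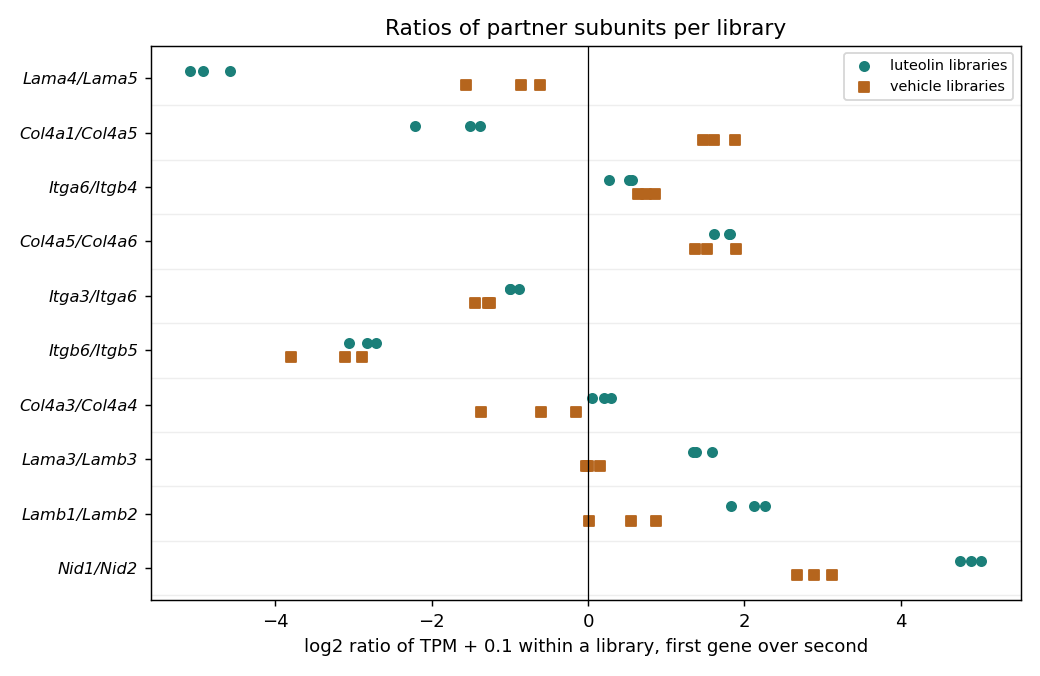
Log2 ratio of TPM + 0.1 of 10 gene pairs within each library, with luteolin libraries as circles above vehicle libraries as squares. The groups overlap for Col4a5/Col4a6 and Itgb6/Itgb5 and are apart for the other pairs drawn.

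In the leukocyte integrin group 5 of 7 tested genes fell, Itgam rose and Itgb7 did not pass. Called genes were 85.7% of this group and 58.9% of all tested genes. Itgb2, the beta subunit that all alpha subunits of the CD11 family need at the cell surface, had 0.32, 0.90 and 0.96 TPM with luteolin, against 6.54, 12.2 and 6.31 TPM with vehicle (log2 fold change -3.57, SE 0.430, edgeR adjusted p = 0.000473). The CD11 subunits Itgal, of lymphocytes, and Itgax, of dendritic cells and macrophages, were 3.56-fold and 2.95-fold lower. Itga4, which pairs with Itgb1 or Itgb7 on leukocytes, had 0.45, 0.34 and 0.31 TPM with luteolin, against 0.84, 2.04 and 0.96 TPM with vehicle, and was 3.52-fold lower. Itgae, a subunit of T cells that reside in epithelia, was 3.004-fold lower, with 1 to 7 reads a library with luteolin and 13 to 20 with vehicle. Its call ended without any 1 of luteolin 1, luteolin 2, luteolin 3, vehicle 1 and vehicle 2 (edgeR adjusted p between 0.0502 and 0.0904 in these fits, over all alternatives 0.0230 to 0.0904), in DESeq2 (adjusted p = 0.0757), with no filter on low counts (0.0501) and with the muscle covariate (0.0825).

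Itgam, the CD11b subunit of macrophages and neutrophils, was an exception in level and direction. It had 61.8, 72.9 and 71.2 TPM with luteolin, against 42.7, 45.7 and 53.1 TPM with vehicle (log2 fold change 0.54, SE 0.111, edgeR adjusted p = 0.00501). Its groups did not overlap, and its level was many times that of Itgb2 in both groups. The annotation and strand setting behind the counts are not given, so reads shared with another transcript could not be checked for Itgam. In the same libraries all 10 macrophage and pan-leukocyte markers fell, with a summed level of 42.7 to 61.0 TPM with luteolin and 287 to 502 TPM with vehicle and none at 0. The leukocyte marker Ptprc had 0.84, 1.21 and 0.72 TPM with luteolin and 5.89, 9.32 and 6.14 TPM with vehicle. All 4 neutrophil markers fell as well, with sums of 3.96 to 14.8 TPM with luteolin and 146 to 333 TPM with vehicle and with S100a8 at 0 in the luteolin libraries. Of 6 T cell markers 2 were tested and fell, with sums of 1.75 to 2.70 TPM with luteolin and 4.37 to 9.29 TPM with vehicle. The part of these markers in the results was not tested. Itgb7, partner of Itga4 and Itgae, had 13.9, 21.7 and 12.2 TPM with luteolin and 10.98, 19.6 and 14.7 TPM with vehicle, with overlapping groups (log2 fold change 0.08, SE 0.270).

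The RefSeq promoter of Itgam (build GRCm38.p6, plus strand) is given because Itgam went against the other CD11 genes. Capitals mark the hexamer GAGGAA on either strand, the core of sites of the myeloid factor PU.1, which occurs 3 times.
Itgam, chr7:128062390-128062689: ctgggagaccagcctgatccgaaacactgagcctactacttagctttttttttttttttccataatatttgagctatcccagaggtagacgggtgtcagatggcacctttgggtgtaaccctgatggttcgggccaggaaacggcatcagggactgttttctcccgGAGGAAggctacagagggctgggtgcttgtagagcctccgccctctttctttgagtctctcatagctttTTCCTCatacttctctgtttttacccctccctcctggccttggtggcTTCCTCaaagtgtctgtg
GAGGAA occurs in 28.3% of all 32851 promoters of that length, in 42.0% of the 50 promoters of the members and in 2 of the 4 leukocyte integrin promoters at hand, those of Itgam and Itgb7. The motif TGANTCA, bound by AP-1, occurs in 7.81% of all promoters, in 6.0% of the members' and in 0 of the 7 at hand for the hemidesmosome and epithelial laminin genes. These 7 belong to only 4 genes, Cd151, Dst, Lamb3 and Col17a1. Itga6, Itgb4, Plec and Lama3 had no promoter at hand and were not searched. A match describes letters in the window only, and 42 of the 61 genes had a promoter in the table.

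**Figure D5:**
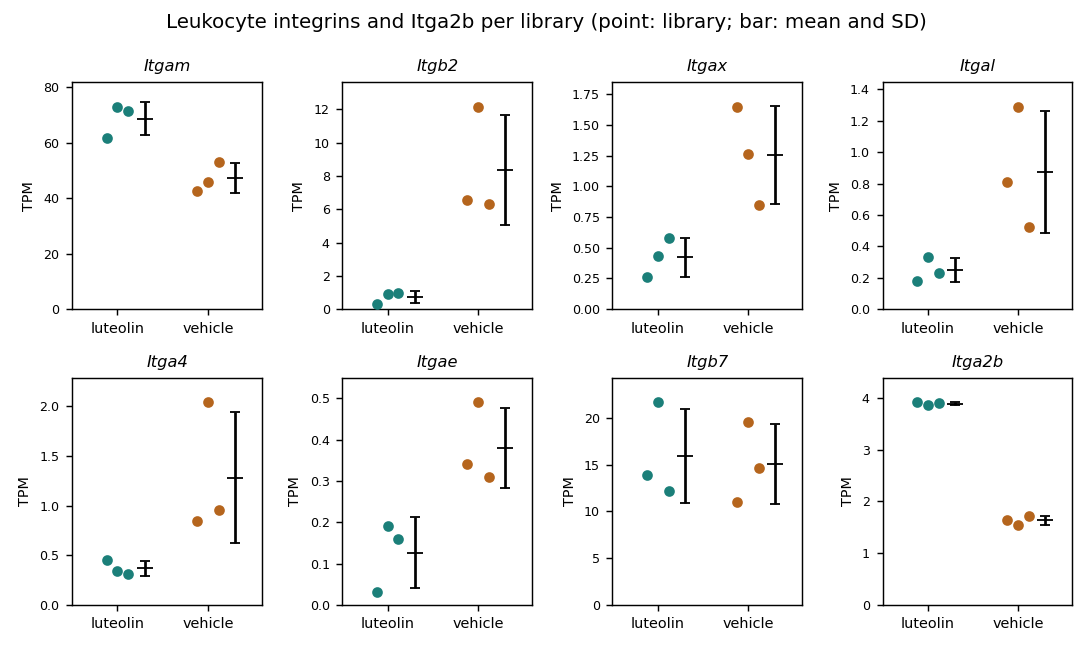
TPM of 7 leukocyte integrin genes and the platelet integrin gene Itga2b in each library, luteolin left and vehicle right of each panel, with the group mean and SD. Itgam and Itga2b lie higher in every luteolin library, Itgb7 overlaps, and the other 5 lie lower.

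Among 4 intracellular regulators of integrins 2 rose, 1 fell and 1 did not pass (75% called, against 58.9% of all tested genes). Fermt1, kindlin-1, which activates integrins in epithelial cells, had 44.4, 35.6 and 43.1 TPM with luteolin and 27.1, 27.8 and 35.6 TPM with vehicle (log2 fold change 0.43, SE 0.138, edgeR adjusted p = 0.0304). Its call was lost without luteolin 1, luteolin 3, vehicle 1 or vehicle 2 (edgeR adjusted p between 0.0665 and 0.105 in these fits, over all alternatives up to 0.105). The call was also lost with upper quartile factors, library sizes only, the muscle covariate and limma-trend on FPKM, but held with relative log expression factors. Kank1, which links adhesion sites to microtubules, had 19.5, 22.1 and 20.9 TPM with luteolin, against 17.5, 18.5 and 17.9 TPM with vehicle (log2 fold change 0.21, SE 0.0706, edgeR adjusted p = 0.0370). Its call was lost without luteolin 2, luteolin 3, vehicle 1 or vehicle 3 (edgeR adjusted p between 0.0809 and 0.140 in these fits, over all alternatives 0.0272 to 0.337) and in DESeq2. The call was also lost with upper quartile factors, library sizes only, the muscle covariate and limma-trend on FPKM, but held with relative log expression factors. Itgb1bp1, a negative regulator that binds the beta 1 tail, had 14.7, 14.0 and 16.4 TPM with luteolin, against 21.5, 20.3 and 17.02 TPM with vehicle, and was 1.43-fold lower (edgeR adjusted p = 0.00469), with decimal counts in all 6 libraries. Itgb1bp2, a muscle protein, did not pass (log2 fold change -0.0013, SE 0.242). The pattern match Itgb3bp had 35.9, 35.2 and 41.5 TPM with luteolin and 35.5, 31.4 and 36.2 TPM with vehicle, and did not pass (0.19, SE 0.137).

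Other genes of the same systems were counted from lists, to be read beside the 28.5% of all tested genes that rose and the 30.4% that fell. Of 16 cytoplasmic adhesion partners 8 fell, 4 rose and 4 did not pass (median log2 fold change -0.22). The 2 with the smallest p were Fermt3, the kindlin of blood cells, which had 59.3, 50.9 and 53.6 TPM with luteolin, against 19.7, 29.1 and 19.1 TPM with vehicle, and Bcar1, a scaffold of focal adhesions, which was 1.37-fold higher. Fermt3, like Itgam, rose while Ptprc fell, and reads shared with another transcript could not be checked for it either. Its log2 fold change was 1.27 with an SE of 0.160 (edgeR adjusted p = 0.000567). Of 15 other basement membrane proteins 9 fell, 2 rose and 4 did not pass (median -1.41), with Fbln1, fibulin-1, 4.10-fold and Col15a1, a collagen of vessel basement membranes, 15.6-fold lower. Of 9 other matrix receptors 5 rose, 2 fell and 2 did not pass (median 0.47). The syndecans Sdc4 and Sdc1, proteoglycan receptors of epithelial cells, were 1.84-fold and 1.505-fold higher.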

How the data were processed

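Gene expression of whole corneas was read from 1 deposited table with 4 measures per library, 3 luteolin and 3 vehicle, grouped by title. RSEM 1.2.12, Bowtie2 2.2.5 and the mm9 build are listed in the submitters' processing notes. No role for these tools, no annotation and no strand setting is given in the sources, and overlapping or antisense genes may share reads. Between 10.3% and 10.8% of the deposited estimated counts lay more than 0.001 from a whole number. Levels are the TPM that the authors deposited, and FPKM as deposited by the authors served an alternative. Another measure, a signal the authors deposited as normalized counts, equals the counts times a library factor (0.937 to 1.06) and was left out. The 8 columns of group averages were not used.

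Rounded counts entered edgeR 4.0.16 (R 4.3.3). Its filterByExpr (minimum count 10, minimum total 15) kept 13838 genes and removed 3956, TMM scaled the libraries, and glmQLFTest was run on both groups with no block. Positive log2 fold changes are higher with luteolin; SE equals their size over the root of F. Folds come from this fit, so they differ slightly from ratios of TPM. The common biological coefficient of variation was 13.8%. Ratios of 12 pairs used log2(TPM + 0.1) and a two-sided exact permutation test, adjusted over the pairs. The code was tested on simulated data. Sequences come from RefSeq, build GRCm38.p6, matched by symbol, and no coordinate of it was set against mm9 values. Protein sequences were not used here. Alternatives were DESeq2 1.42.0, other factors and filters, robust dispersion, a replicate block, a muscle covariate, limma-trend (limma 3.58.1) on log2 FPKM, and leaving out each library.

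1 member is counted but not reported here, nor are the ratios that use it. Members, role groups, lists and pairs were chosen with earlier results of these data known. In each role group the rule gave full values for the 3 tested genes with the smallest p and for the one with the highest mean TPM. Full values of Lama2, Lama5, Col4a3, Col4a4, Nid1, Itgb6 and Itgb7, the genes drawn per library and the level of 10 TPM were chosen after values were seen.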

Additional observations from a re-analysis of the deposited data

How the results depend on the processing

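Of the 42 called members, 34 to 42 kept their call and direction under the alternatives. The fewest remained without luteolin 3 (34) and with the muscle covariate (35), and all 42 remained with the replicate block, relative log expression factors and robust dispersion. Members called higher were 8 to 11 and called lower 26 to 32 when a library was left out, and 8 to 14 and 27 to 32 under the other alternatives. All genes called were 6795 to 8493 when a library was left out. DESeq2 called 31 members lower. The median log2 fold change of the members was -0.60 to -0.49 when a library was left out, and -0.62 with upper quartile factors, -0.64 with library sizes only, -0.32 with limma-trend on log2(FPKM + 1) and -0.63 with log2(FPKM + 0.1). In these 4 settings the median over all genes was -0.11, -0.13, -0.12 and -0.14, against -0.02, and 61.9%, 63.6%, 65.1% and 65.3% of calls were lower, against 51.6%. Under each of these 4 settings Col17a1, Fermt1, Itgb6 and Kank1 lost their calls, so that 0 hemidesmosome genes, 0 regulators and 0 other beta subunits were higher, as with the muscle covariate, which also left 0 of the anchoring group lower. DESeq2 called 1 regulator higher. With a library left out, genes called higher were 0 to 1 in the hemidesmosome group, 0 to 1 among regulators and 0 to 2 among other beta subunits, and 0 to 1 of the anchoring group was lower. The cause was not tested.

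Every reversal was of a gene that did not pass. With upper quartile factors, library sizes only, limma-trend on log2(FPKM + 1) and on log2(FPKM + 0.1) the log2 fold changes were -0.010, -0.029, -0.10 and -0.10 for Itgb5, -0.018, -0.037, -0.045 and -0.049 for Itgb7, -0.079, -0.097, -0.085 and -0.092 for Col7a1 and -0.042, -0.061, -0.070 and -0.071 for Cd151. Dst was at -0.0015, -0.030 and -0.031 under the last 3. With the muscle covariate Col7a1 was at -0.022, Itgb1bp2 at 0.12 and Itga10 at 0.071. Itgb1bp2 was at 0.0019 without a filter and 0.016 with the replicate block. With a library left out Itgb5 ran from -0.0098 to 0.27, Itgb7 from -0.22 to 0.31, Col7a1 from -0.056 to 0.13, Lamb2 from -0.29 to 0.14, Lama3 from -0.17 to 0.052, Itgb1bp2 from -0.15 to 0.19 and Itga10 from -0.23 to 0.15. The reported ratios kept their direction under all alternatives run. Log2(FPKM + 1) shrinks folds of low genes such as Itgal (-0.47). Genes of few reads, such as Itgae and Itgad, are limited by depth.

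The labels give both groups the numbers 1 to 3 and state no pairs, so the main fit used no pairing. Same-numbered libraries did not deviate together (r -0.15, 0.03 and 0.01), and not every library correlated best with its own number. With 3 libraries a group these values cannot show whether libraries were paired. With the number as a replicate block the number of genes called was 7934, with 14 members higher and 32 lower: Nid1 and Itga11 also passed as lower, and Col4a3 (1.56, edgeR adjusted p = 0.00122) and Col4a4 (0.60, edgeR adjusted p = 0.0280) as higher, which made 3 collagen IV chains higher.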
